A study of Mus musculus with 30 samples.

Results

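The abundant nuclear and structural noncoding RNAs Rn7s1, Rn7s2, Rn7sk, Rmrp, Gm26917, Malat1 and Neat1 were followed through 30 RNA-seq libraries of 3T3-L1 cells. They are 7 of the 54232 genes of the count table, they carry 8 gene identifiers because Rmrp has more than one, and 6 identifiers had more than 14 counts over the 30 libraries and could be fitted. The members were chosen by their counts, since several of them stood far above their group in a library of the oxLDL + pNaKtide group. The values that chose them are therefore the counts of the oxLDL and oxLDL + pNaKtide libraries, and the members' values in comparisons that use those libraries are given below as descriptions without a test. 3T3-L1 is an established mouse preadipocyte line, kept here for 5 days in adipogenic medium. The 6 groups of 5 libraries were Control, pNaKtide (0.7 µM), IS (indoxyl sulfate, a uremic toxin, 100 µM), IS + pNaKtide, oxLDL (oxidized low density lipoprotein, 50 µg/mL) and oxLDL + pNaKtide. pNaKtide is a cell-permeant peptide made against the oxidant amplification loop of the Na,K-ATPase. The labels give 5 days of treatment whereas the methods of the study give a shorter one, and no source states that the 5 libraries of a group came from separate cultures, so p-values measure the spread between these libraries, which may be technical.

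These RNAs do not code for protein. 7SL RNA, transcribed by RNA polymerase III from Rn7s1 and Rn7s2, is the scaffold of the signal recognition particle, which brings ribosomes making secreted proteins to the endoplasmic reticulum. 7SK RNA (Rn7sk), also a polymerase III product, holds the elongation factor P-TEFb in an inactive particle, and Rmrp is the RNA of RNase MRP, an enzyme that processes the ribosomal RNA precursor. Malat1 and Neat1 are long nuclear RNAs made by RNA polymerase II, Malat1 residing in nuclear speckles and Neat1 forming the core of paraspeckles. 7SL, 7SK and Rmrp carry no poly(A) tail, and the libraries were made with a kit that selects poly(A) RNA.

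The positions and sequences of the short RNAs, from the GENCODE M21 transcripts on GRCm38, show what the counting could and could not separate. Rn7s1 (chr12:69159295-69159594, plus strand) and Rn7s2 (chr12:69361182-69361481, minus strand) are each 300 bases long and differ at 0 bases. Rn7sk lies at chr9:78175303-78175633 on the minus strand and is 331 bases long. Its last 300 bases (chr9:78175303-78175602) are shown, with its longest runs of A, 3 bases each, in capitals.
Rn7sk: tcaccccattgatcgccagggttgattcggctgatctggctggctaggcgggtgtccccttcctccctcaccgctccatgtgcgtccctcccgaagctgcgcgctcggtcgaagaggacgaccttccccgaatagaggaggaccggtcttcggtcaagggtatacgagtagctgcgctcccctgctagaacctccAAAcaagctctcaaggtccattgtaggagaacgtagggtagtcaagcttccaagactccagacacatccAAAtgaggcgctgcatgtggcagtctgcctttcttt
Rmrp is annotated under 2 overlapping identifiers, of 271 and 281 bases, on the minus strand of chr4:43492783-43493063. The shorter identifier lies wholly within the longer one, which adds 5 bases at each end. The bases held by both are in capitals.
Rmrp: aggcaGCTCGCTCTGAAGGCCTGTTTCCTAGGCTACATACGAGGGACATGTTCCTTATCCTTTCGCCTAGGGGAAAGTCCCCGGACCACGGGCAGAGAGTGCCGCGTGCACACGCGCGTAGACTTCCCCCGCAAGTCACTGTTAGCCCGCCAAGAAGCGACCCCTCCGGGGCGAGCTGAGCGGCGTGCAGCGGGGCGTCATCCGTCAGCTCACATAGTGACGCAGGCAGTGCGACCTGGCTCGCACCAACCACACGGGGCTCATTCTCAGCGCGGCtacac

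Both Rmrp identifiers had 0 counts in every one of the 30 libraries, so Rmrp has no measured level here. Since 271 of its 281 bases belong to both identifiers, and Ccdc107 runs over part of them on the other strand (14133 counts in all), a value of 0 says nothing of the RNA in the cells. Short RNAs annotated inside Rn7s1, Rn7s2, Malat1 and Neat1 on the same strand also had 0 counts, whereas these members themselves were counted. Rn7s1 and Rn7s2 differed by at most 58 counts in a library (2.36% at most, and not at all in 2 libraries). The sum of their squared differences over their sums was 0.0273 per degree of freedom, where independent counts give about 1. They differed by less than the sampling noise and are counted as 1 measurement, given as Rn7s1, which leaves 5 separate measurements.

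The long members differ among themselves in base composition and 3′ end. Gm26917, annotated as a long intergenic noncoding RNA, spans 3329 bases at chr17:39843013-39846341 on the plus strand and is 69.1% G and C. Its end lies 12 bases from Rn18s-rs5, a ribosomal RNA gene that RefSeq annotates on this build, and CT010467.1, which GENCODE calls an rRNA gene, covers that stretch on the minus strand. Malat1 spans 6983 bases at chr19:5795690-5802672, and Neat1 spans 20771 bases at chr19:5824708-5845478, both on the minus strand. Their G and C contents are 42.5% and 47.3%, against 62.3% in 7SL, 58.0% in 7SK and 63.7% in the longer Rmrp. The poly(A) signal AATAAA was searched on the transcribed strand alone. It occurs 4 times in Malat1 and 6 times in Neat1, and in none of the other members. The last one in Neat1 lies 2071 bases before the end of its sequence. Whether these RNAs carried a poly(A) tail was not measured. The last 100 bases of Gm26917 (chr17:39846242-39846341) and Malat1 (chr19:5795690-5795789) are shown to compare the ends of a member beside the ribosomal RNA genes and a member with a poly(A) signal, in capitals, 16 bases from its end.
Gm26917: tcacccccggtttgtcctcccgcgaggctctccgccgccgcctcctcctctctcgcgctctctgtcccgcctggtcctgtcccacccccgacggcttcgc
Malat1: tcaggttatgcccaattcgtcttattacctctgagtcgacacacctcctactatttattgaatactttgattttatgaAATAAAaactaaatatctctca
The longest run of A is 12 bases in Malat1 and 7 in Neat1, and 4 in Gm26917.

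The libraries held between 6945498 and 15159877 counted reads, with a median of 11524210. Levels are given as CPM, counts scaled to a common library size by TMM, and levels of different genes are compared only per length, as FPKM. Adipocyte markers summed to between 11255 and 17604 CPM in the 30 libraries, and Adipoq alone to at least 676 CPM. The preadipocyte or fibroblast markers summed to between 1114 and 3134 CPM. The 4 macrophage markers summed to at most 8.13 CPM, and the endothelial and red cell markers to less than 1 CPM. The first principal component of 12580 genes held 64.4% of their variance. On it Control replicate 1 (−25.8) lay apart from the other Control libraries (6.47 to 29.9), and IS replicate 4 (28.2) apart from the other IS libraries (−36.7 to −23.2). The strand setting of the counting is not given in the sources used here, so reads of a gene and of a partner on the other strand cannot be told apart.

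By length, 7SL was the highest of the members in a typical library. The median FPKM over the 30 libraries was 89.8 for Rn7s1, 38.7 for Gm26917, 34.5 for Malat1, 21.6 for Rn7sk and 6.50 for Neat1. These medians cannot be read as amounts in the cell, since 7SL and 7SK reach a poly(A) library only in part. Fewer cells of a kind and less RNA per cell cannot be told apart in such bulk values.

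7SL RNA was lowest in libraries of the oxLDL and IS groups and highest in those of oxLDL + pNaKtide. Rn7s1 had 23.0, 30.7, 27.5, 41.4 and 34.1 CPM in Control replicates 1 to 5, the order used for every group here. It had 46.6, 59.6, 21.2, 50.8 and 30.1 CPM with pNaKtide. With IS it had 9.06, 13.4, 17.9, 43.7 and 24.0 CPM. The IS libraries thus spanned 4.82-fold, with replicate 4 above every Control library. Rn7s1 had 17.01, 19.8, 27.4, 17.9 and 17.8 CPM with IS + pNaKtide. With oxLDL it had 10.8, 8.65, 37.7, 21.8 and 12.3 CPM. With oxLDL + pNaKtide it had 608, 38.9, 55.2, 76.3 and 48.0 CPM. Replicate 1 of this group was 7.97-fold above the next library of the series, and the other 4 were each above all 5 oxLDL libraries. The order of the group means, from oxLDL + pNaKtide through pNaKtide, Control, IS and IS + pNaKtide to oxLDL, had no step between neighbours larger than 1 pooled SD, with or without that library.

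7SK RNA was also highest in libraries of oxLDL + pNaKtide, and its lowest group mean was that of IS + pNaKtide (5.78 CPM). Rn7sk had 5.42, 8.46, 9.84, 11.4 and 7.66 CPM in Control. It had 9.37, 14.5, 5.43, 13.3 and 6.51 CPM with pNaKtide. With IS it had 3.81, 4.67, 6.71, 9.49 and 6.95 CPM. All IS libraries lay below the highest Control library, and replicate 4 was again the highest of its group. Rn7sk had 6.38, 4.45, 8.18, 4.68 and 5.203 CPM with IS + pNaKtide. With oxLDL it had 3.88, 4.63, 13.1, 4.75 and 5.18 CPM. With oxLDL + pNaKtide it had 211, 11.8, 20.2, 18.7 and 12.7 CPM. oxLDL replicate 3 overlapped the lower libraries of oxLDL + pNaKtide, whereas the other 4 oxLDL libraries lay below all of them. These levels rest on 52 to 227 counts in every library but oxLDL + pNaKtide replicate 1, which had 1826.

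Gm26917 was lowest in the IS + pNaKtide group and highest in oxLDL + pNaKtide. It had 106, 185, 133, 212 and 175 CPM in Control. It had 163, 207, 109, 197 and 170.3 CPM with pNaKtide. With IS it had 81.3, 91.7, 95.8, 161 and 111 CPM. Every IS library was below the Control mean of 162 ± 42.5 CPM (SD, n = 5), although the groups overlapped. Gm26917 had 101, 83.0, 97.8, 78.1 and 97.2 CPM with IS + pNaKtide, all below the lowest Control library. With oxLDL it had 100.2, 104, 148, 131 and 104 CPM. With oxLDL + pNaKtide it had 1419, 189, 190.4, 297 and 271 CPM. The oxLDL and oxLDL + pNaKtide libraries did not overlap, and replicate 1 was 4.78-fold above the next library of the series. In the order of its group means, the step from Control to oxLDL was larger than 1 pooled SD. Without replicate 1 the step from oxLDL + pNaKtide to pNaKtide was larger too, here and for Rn7sk, although neighbouring groups overlapped.

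Malat1 followed another order, with its highest group mean in oxLDL. It had 599.6, 158, 155, 158 and 128 CPM in Control. Replicate 1 was thus the highest of all 30 libraries, whereas the other 4 were among the low ones. Malat1 had 203, 152, 244, 249 and 227 CPM with pNaKtide. With IS it had 502, 403, 275, 215 and 244 CPM. With IS + pNaKtide it had 326, 201, 321, 348 and 262 CPM. The IS libraries lay above the Control libraries other than replicate 1. Malat1 had 518, 515, 215, 249 and 386 CPM with oxLDL. With oxLDL + pNaKtide it had 394, 267, 151, 97.7 and 201 CPM. These groups overlapped, and replicate 1 of oxLDL + pNaKtide was the highest of its group.

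Neat1 had 197, 85.0, 63.4, 83.7 and 62.4 CPM in Control, with replicate 1 again apart from the rest. It had 63.7, 65.7, 109.6, 135 and 135 CPM with pNaKtide. With IS it had 209.9, 189, 137, 82.8 and 145 CPM. In the IS group replicate 4 was the lowest for Neat1 and for Malat1, and the highest for Rn7s1, Rn7sk and Gm26917. Neat1 had 141, 142, 184, 178 and 159 CPM with IS + pNaKtide. With oxLDL it had 160.5, 200.1, 113, 129 and 194 CPM. With oxLDL + pNaKtide it had 131, 136, 159.7, 78.3 and 112 CPM. Replicate 1 of oxLDL + pNaKtide lay inside the range of its group for this RNA. For Malat1 and Neat1 alike no neighbours in the order of group means differed by more than 1 pooled SD.

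**Figure D1:**
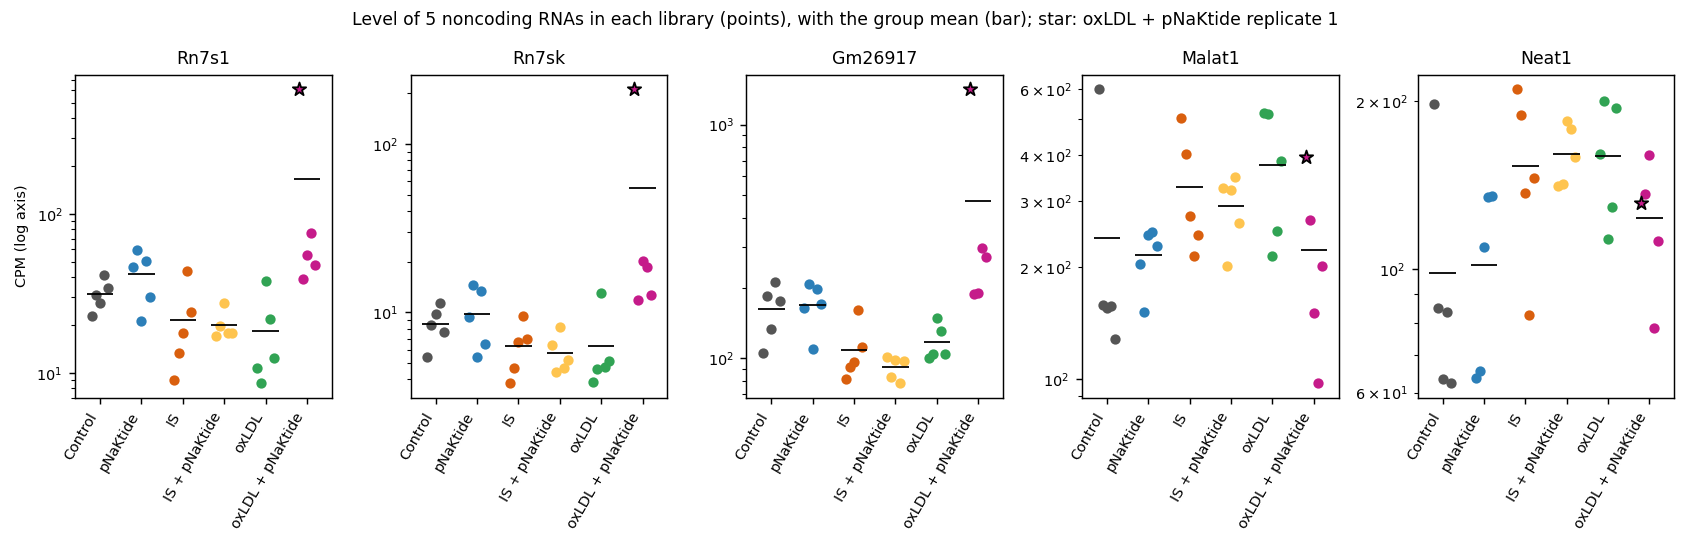
Level of Rn7s1, Rn7sk, Gm26917, Malat1 and Neat1 in CPM (log axis) in each of the 30 libraries by group, with bars at the group means and a star at oxLDL + pNaKtide replicate 1. The star stands at 608 CPM for Rn7s1, 211 CPM for Rn7sk and 1419 CPM for Gm26917, above every other library, and inside the range of the libraries for Malat1 and Neat1.

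oxLDL + pNaKtide replicate 1 stood far above its group in few genes. Its total of 9478826 counts was within the range of the series, as was its place on the first principal component (21.6). Of 12580 genes with a mean of at least 1 on the log2 CPM scale, 14 were over 4-fold and 27 over 2-fold above the mean of the other 4 libraries of the group, and the median gene was at 0.988-fold. In the other direction 0 genes were over 4-fold and 26 over 2-fold below that mean. Of the members, Rn7sk was 13.3-fold, Rn7s1 11.1-fold and Gm26917 5.99-fold above that mean. Malat1 was 2.20-fold above it and Neat1 1.08-fold.

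The genes beyond 4-fold were almost all noncoding. They comprised 7 genes annotated as misc_RNA, among them both 7SL genes, Rn7sk and Rn7s6, 3 annotated as snRNA (Gm26244, Gm24924 and Gm24305, at 47.4- to 48.8-fold), Gm26917, its neighbour Gm42418, CT010467.1 of the ribosomal RNA repeat, and the protein-coding gene Lars2. CT010467.1 had 11991 CPM in replicate 1, against a mean of 1695 ± 301 CPM (SD, n = 4) in the other libraries of the group. The mitochondrial ribosomal RNAs summed to 2724 CPM there, against 684 to 1312 CPM in the other 29 libraries. Of the other RNAs without a poly(A) tail, the 5 with the most counts were each highest in this library. Rn7s6 had 207 CPM there against at most 23.5 CPM elsewhere, Rpph1 16.4 against 1.61, Rny3 9.27 against 1.12, Rprl3 5.56 against 0.869, and Rny1 6.49 against 0.371.

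Small nucleolar and Cajal body RNAs summed to 15.6 CPM in that library, above the 0.282 to 2.31 CPM of the other 29 libraries. The groups of transcripts that follow lay inside the range of the other libraries. Replication-dependent histone transcripts, which also end without a poly(A) tail, summed to 382 CPM, within the 286 to 473 CPM of the other 29 libraries. The proteins of the signal recognition particle summed to 881 CPM (830 to 923 in the others), those of the 7SK particle and P-TEFb to 782 CPM (605 to 953), and those of RNase MRP and RNase P to 201 CPM (158 to 235). Adipocyte markers summed to 15965 CPM, also inside the range. Within the library Rn7s1 stood to Rn7sk at 2.88, inside the 1.87 to 4.98 of the other 29 libraries, and CT010467.1 stood to Gm26917 at 8.45, inside 4.70 to 9.91. CT010467.1 stood to Rn7s1 at 19.7, below the 27.5 to 66.1 of the other libraries, so 7SL exceeded its usual proportion to the ribosomal RNA. Whether the efficiency of poly(A) selection had a part in these values was not tested.

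**Figure D2:**
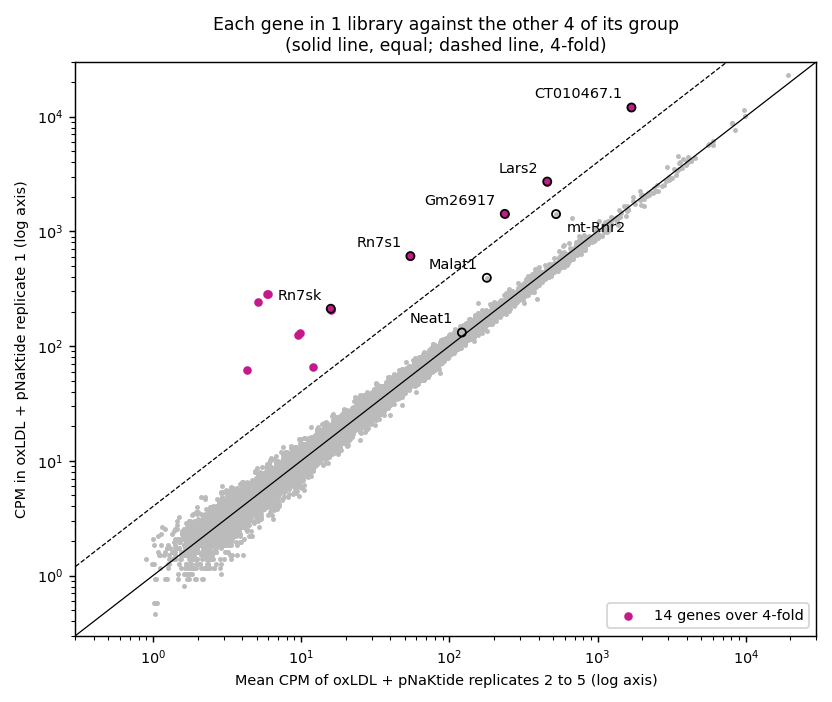
CPM of each of 12580 genes in oxLDL + pNaKtide replicate 1 against the mean of replicates 2 to 5, both on log axes, with lines at equality and at 4-fold. The 14 coloured genes over 4-fold, Rn7s1, Rn7sk and Gm26917 among them, lie clear of the cloud of all other genes, and Neat1 lies within it.

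**Figure D3:**
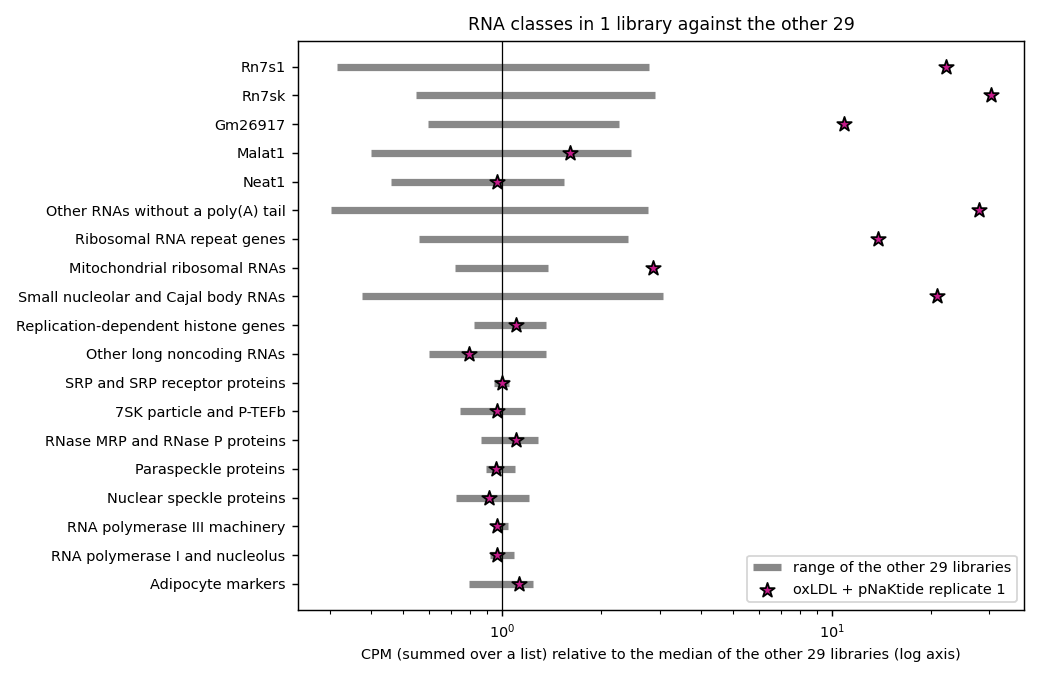
CPM of the members, and CPM summed over lists of genes, in oxLDL + pNaKtide replicate 1 (star), relative to the median of the other 29 libraries (log axis), with a grey bar for their range. The star lies beyond the bar for 7SL, 7SK, Gm26917, other RNAs without a poly(A) tail, ribosomal RNA genes, mitochondrial ribosomal RNAs and small nucleolar RNAs. It lies within the bar for Malat1, Neat1, histones and the lists of proteins.

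In the comparisons that do not use the oxLDL libraries, no member passed an adjusted p of 0.1 in edgeR's quasi-likelihood test over the 20139 genes. With pNaKtide against Control, 0 of 6 fitted identifiers passed, where 0.00497% of all genes did, and 0 had an unadjusted p below 0.05. The log2 fold changes were 0.41 (SE 0.61) for Rn7s1, 0.20 (SE 0.66) for Rn7sk, 0.062 (SE 0.38) for Gm26917, −0.16 (SE 0.38) for Malat1 and 0.047 (SE 0.28) for Neat1. The adjusted p-values lay between 0.970 and 0.992. The 95% interval of each included no change and, for Rn7s1, reached from −0.79 to 1.61. The groups overlapped for every member, where 0.934% of all genes did not overlap. Without Control replicate 1 the value of Malat1 turned to 0.52.

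With IS against Control, 0 of 6 identifiers passed the edgeR test, where 7.94% of all genes did. Neat1 was the member with an unadjusted p below 0.05. Its log2 fold change was 0.63 (SE 0.28, adjusted p = 0.161), with 153 ± 49.5 CPM in IS and 98.4 ± 56.4 CPM in Control (SD, n = 5), and 4 of 5 IS libraries lay above the Control mean. The groups overlapped for every member, where 1.81% of all genes did not overlap. Malat1 stood at 0.45 (SE 0.38, adjusted p = 0.465). Rn7s1 stood at −0.55 (SE 0.62, adjusted p = 0.60), Rn7sk at −0.45 (SE 0.66, adjusted p = 0.698) and Gm26917 at −0.59 (SE 0.38, adjusted p = 0.338). DESeq2 called 1 member, Neat1 (adjusted p = 0.0963), where it called 15.7% of all genes, and limma-trend on FPKM called 0, where it called 13% of all genes.

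These calls depended on single libraries. Leaving out oxLDL + pNaKtide replicate 1, a library of neither group, lowered the SE of Rn7s1 from 0.62 to 0.34, of Rn7sk from 0.66 to 0.30 and of Gm26917 from 0.38 to 0.19, since the spread is shared over the 6 groups. Gm26917 was then called lower with IS, at −0.58 (adjusted p = 0.0917), where 6.41% of all genes were called. It was also called without the 10 oxLDL and oxLDL + pNaKtide libraries (adjusted p = 0.0909), where 6.57% of all genes were. Without Control replicate 1, Malat1 was called higher with IS, at 1.13 (adjusted p = 0.0145), and Neat1 at 1.05 (adjusted p = 0.0063), where 33.4% of all genes were called. Without IS replicate 4, Neat1 stood at 0.80 (adjusted p = 0.0445), where 34.4% of all genes were called. With those 3 libraries left out together all 6 identifiers were called, where 45.8% of all genes were, with Rn7s1 at −1.04 (adjusted p = 0.0342), Rn7sk at −0.73 (adjusted p = 0.0769) and Gm26917 at −0.88 (adjusted p = 0.000357). The 3 libraries were chosen for standing apart in these RNAs or on the first principal component, so these values are no independent evidence. Leaving out IS replicate 1 alone made changes smaller, with Malat1 at 0.24, Neat1 at 0.49, Rn7s1 at −0.36 and Rn7sk at −0.31.

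With IS + pNaKtide against IS, 0 of 6 identifiers passed, where 0% of all genes did by edgeR (564 at an unadjusted p below 0.05, and 14 by DESeq2). The log2 fold changes ran from −0.24 (SE 0.38) for Gm26917 to 0.073 (SE 0.28) for Neat1. The groups overlapped for every member, where 0.834% of all genes did not overlap. All 5 IS + pNaKtide libraries were below the IS mean of Gm26917, but within the IS range except for replicate 4. That mean rested on IS replicate 4, without which the IS mean was 94.9 ± 12.3 CPM (SD, n = 4), 3 of the 5 IS + pNaKtide libraries lay above it, and the log2 fold change moved from −0.24 to −0.061. The change with pNaKtide in the presence of IS did not differ detectably from that in its absence for any member in edgeR's test of the difference (adjusted p of 1 for each; 0 of all genes, and 619 at an unadjusted p below 0.05). For Rn7s1 that difference was −0.50 (SE 0.87).

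With IS + pNaKtide against Control, 0 of 6 identifiers passed, where 0.358% of all genes did, and 2 had an unadjusted p below 0.05. Gm26917 was at 91.4 ± 10.1 CPM against 162 ± 42.5 CPM (SD, n = 5), and stood at −0.83 on the log2 scale (SE 0.38, adjusted p = 0.234). Its groups did not overlap, which held for 3.79% of all genes. Neat1 stood at 0.71 (SE 0.28, adjusted p = 0.188), higher than the Control mean in 5 of 5 libraries, and DESeq2 called it (adjusted p = 0.0952) with 7.38% of all genes. Rn7s1 stood at −0.65 (SE 0.62) and Rn7sk at −0.55 (SE 0.67), each with 5 of 5 libraries below the Control mean. Without oxLDL + pNaKtide replicate 1 Gm26917 was called, at −0.82 (adjusted p = 0.0825), where 0.279% of all genes were. With the 2 compared groups alone in the fit, Gm26917 (adjusted p = 0.0425) and both 7SL genes (adjusted p = 0.0733 for Rn7s1) were called, where 7.39% of all genes were. With the offset for the trends over length and G and C content, Neat1 was called (0.73, adjusted p = 0.0995), where 2.34% of all genes were. Over all libraries Malat1 stood at 0.28 (SE 0.38, edgeR adjusted p = 0.701), and at 0.12 without Control replicate 5. Without Control replicate 1, Malat1 (0.96, adjusted p = 0.039) and Neat1 (1.13, adjusted p = 0.00927) were called, where 26.9% of all genes were. Without the 3 libraries 3 identifiers were called, Gm26917 (−0.94, adjusted p = 0.00119), Malat1 and Neat1, where 32.5% of all genes were. This comparison and that of IS share the Control libraries.

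The comparisons with oxLDL chose the members, and their values are described without a test. With oxLDL + pNaKtide against oxLDL, Rn7s1 stood at a log2 fold change of 3.22 (SE 0.65) over all libraries and at 1.63 (SE 0.37) without oxLDL + pNaKtide replicate 1. Rn7sk went from 3.19 (SE 0.65) to 1.40 (SE 0.31), and Gm26917 from 2.01 (SE 0.39) to 1.03 (SE 0.20). These 3 RNAs were still higher with pNaKtide when that library was left out. In CPM, the mean of Rn7s1 with oxLDL + pNaKtide fell from 165 ± 248 (SD, n = 5) to 54.6 ± 15.9 (SD, n = 4), against 18.2 ± 11.96 (SD, n = 5) with oxLDL. Malat1 stood at −0.76 (SE 0.38) over all libraries and at −1.06 (SE 0.37) without that library, and Neat1 at −0.37 (SE 0.28) and −0.38 (SE 0.30). Of the 6 identifiers, 3 had groups that did not overlap, namely Gm26917 and both 7SL genes, which are 1 measurement. Over all genes 28.4% had groups that did not overlap, and 48.3% were called in this comparison by edgeR. The median over the 5 measurements was 2.01, and −0.09 over all genes. The libraries also stood apart as a whole, with the first principal component between −41.9 and −14.7 in oxLDL and between 14.5 and 67.5 in oxLDL + pNaKtide, of which replicate 4 was the highest and the smallest library of the series. The part of that difference in these values was not tested.

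With oxLDL against Control, 7SL, 7SK and Gm26917 had lower means and Malat1 and Neat1 higher ones. The log2 fold changes were −0.82 (SE 0.63) for Rn7s1, −0.50 (SE 0.67) for Rn7sk, −0.47 (SE 0.38) for Gm26917, 0.65 (SE 0.38) for Malat1 and 0.70 (SE 0.28) for Neat1. The groups overlapped for each of them, where 8.35% of all genes did not overlap and 36% were called. With oxLDL + pNaKtide against Control, Rn7s1 stood at 2.40 (SE 0.62), Rn7sk at 2.69 (SE 0.62) and Gm26917 at 1.54 (SE 0.39), and without replicate 1 at 0.81 (SE 0.36), 0.91 (SE 0.30) and 0.56 (SE 0.20). Malat1 stood at −0.11 (SE 0.38), turning to 0.57 without Control replicate 1, and Neat1 at 0.33 (SE 0.28). Of the 6 identifiers, Rn7sk alone had groups that did not overlap, against 4.03% of all genes, of which 5.2% were called. These comparisons share their oxLDL, oxLDL + pNaKtide or Control libraries.

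**Figure D4:**
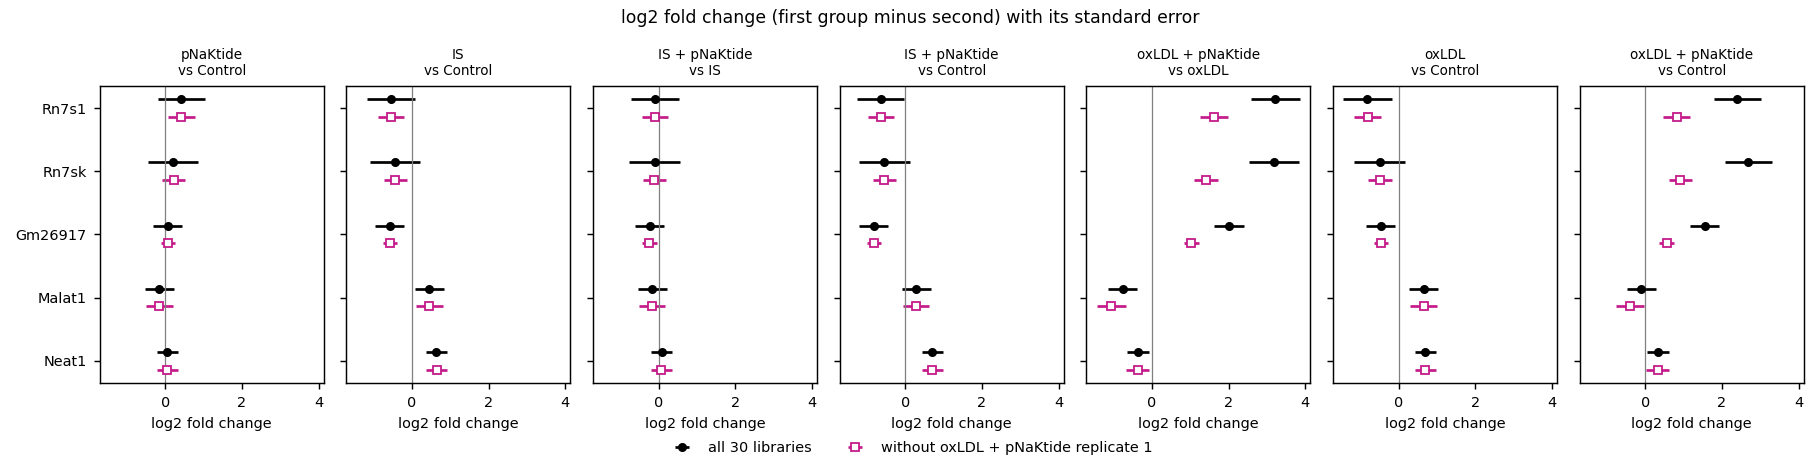
log2 fold change (first group minus second) of 5 measurements in 7 comparisons, with bars of 1 standard error, over all 30 libraries (filled circles) and without oxLDL + pNaKtide replicate 1 (open squares). In oxLDL + pNaKtide against oxLDL, Rn7s1 moves from 3.22 to 1.63 and Neat1 stays near −0.37, and in the comparisons without oxLDL libraries the values barely move and the bars of Rn7s1, Rn7sk and Gm26917 shorten.

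The members fell into 2 sets by how they varied over libraries. Over all 30 libraries the log2 CPM of Rn7s1 had a Pearson correlation of 0.954 with that of Rn7sk and of 0.936 with that of Gm26917, and without oxLDL + pNaKtide replicate 1 of 0.911 and 0.864. Malat1 and Neat1 correlated at 0.803 over 30 libraries and 0.812 over 29. Between the sets the sign was negative and rested in size on that library, with Rn7s1 and Malat1 at −0.418 over 30 libraries and −0.799 over 29. After the group means were taken out, Rn7s1 and Malat1 stood at −0.168 over 30 libraries and at −0.696 over 29, and Malat1 and Neat1 at 0.781 and 0.817. Rn7s1 and Neat1 stood at −0.385 and −0.635. The size of these negative values thus depended on that library, more for Malat1 than for Neat1, and the order of libraries was not the same in every group. With IS + pNaKtide the library highest in Rn7s1, replicate 3, was also the highest in Neat1, and the lowest, replicate 1, was also the lowest. These points share library, depth and base composition, and the values are descriptions.

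Measures of the whole library ran with both sets. The first principal component correlated over 29 libraries at 0.892 with Rn7s1, 0.764 with Rn7sk and 0.876 with Gm26917, and at −0.841 with Malat1 and −0.786 with Neat1. The slope of a library's genes per doubling of length correlated at −0.883 with Rn7s1 and at 0.871 with Malat1. It correlated at −0.779 with Rn7sk, −0.814 with Gm26917 and 0.79 with Neat1. The slope per 10 percentage points of G and C correlated at 0.88 with Gm26917, the member richest in G and C, and at −0.819 with Malat1, the poorest. The summed level of the ribosomal RNA repeat genes correlated at 0.964 with Rn7s1. With an offset for the trends over length and G and C content, Neat1 with oxLDL + pNaKtide against oxLDL moved from −0.37 to 0.045, and Rn7sk with oxLDL against Control from −0.50 to 0.055. Beyond this offset, the part of these library measures in the members' values was not tested.

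**Figure D5:**
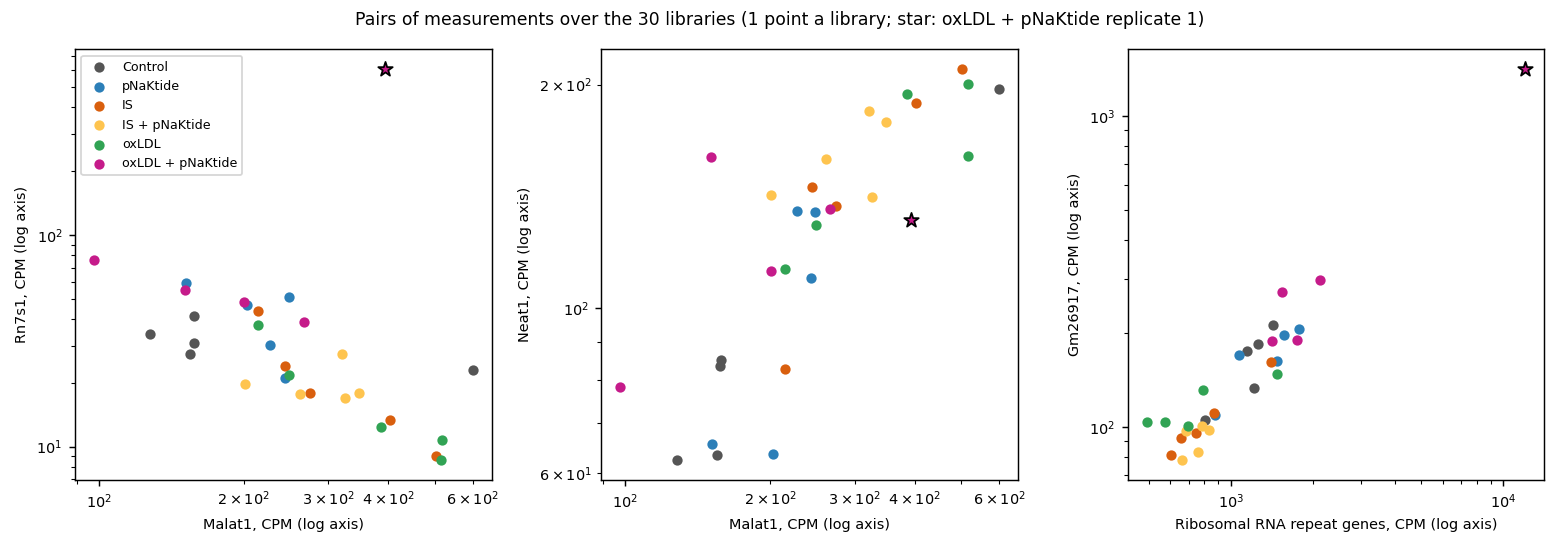
CPM of Rn7s1 against Malat1, of Neat1 against Malat1, and of Gm26917 against the summed ribosomal RNA repeat genes, on log axes, with 1 point for each of the 30 libraries coloured by group and a star at oxLDL + pNaKtide replicate 1. Rn7s1 is lower where Malat1 is higher over the 29 other libraries (r = −0.799), Malat1 and Neat1 rise together (r = 0.812), and the star lies far from the other points in the first and last panel.

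The genes whose levels most resembled each member were searched among 12574 others. For Rn7s1 they were Rn7s6 (r = 0.992 over 30 libraries, 0.983 over 29), CT010467.1 (0.982 and 0.964), Lars2 (0.971 and 0.950), which encodes a mitochondrial leucyl-tRNA synthetase, Gm26315 (0.946 and 0.887) and Gm24447 (0.939 and 0.872). For Rn7sk they were Gm26315 (0.992 and 0.982), Gm24447 (0.991 and 0.978), Lars2 (0.980 and 0.946), Gm26035 (0.975 and 0.937) and CT010467.1 (0.971 and 0.932). For Gm26917 they were Gm42418 (0.963 and 0.909), CT010467.1 (0.958 and 0.902), Lars2 (0.944 and 0.861), Gm26315 (0.941 and 0.858) and Gm24447 (0.940 and 0.854). Over 30 libraries noncoding genes made up these lists apart from Lars2, which also stood apart in oxLDL + pNaKtide replicate 1 (2713 CPM against a mean of 458 CPM). When that library was left out of the ranking, the list of Rn7sk held the same 5 genes. In that of Rn7s1 the protein-coding genes Atp5e (0.925 over 29 libraries) and Mrps18a (0.922) took the places of Gm26315 and Gm24447. For Gm26917 all 5 genes changed, to the protein-coding genes Zfp385a (0.925 over 29 libraries), Epn1 (0.920), Sod3 (0.919) and Fam221b (0.917) and the pseudogene Hist1h2al (0.920). The noncoding make-up of the list thus rested on that library for Gm26917, and in 2 of 5 places for Rn7s1.

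For Malat1 and Neat1 the most similar genes were of another kind. Those of Malat1 were Tnrc6a (r = 0.911 over 30 libraries, 0.923 over 29), which serves in microRNA-guided silencing, Trim44 (0.908 and 0.915), the DNA methyltransferase Dnmt3a (0.905 and 0.918), the motor protein Myo5a (0.903 and 0.920) and Slf2 (0.899 and 0.909). Those of Neat1 were the splicing factor Cwc22 (0.958 over both), the lincRNA 2900097C17Rik (0.954 and 0.957), Rsrp1 (0.954 and 0.959), Gm13694 (0.950 and 0.953) and the splicing factor Srsf5 (0.946 and 0.952). Over 30 and over 29 libraries these correlations lay between 0.899 and 0.959.

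The protein partners of these RNAs were looked at in the comparison of oxLDL + pNaKtide with oxLDL, in 7 lists. These lists were written with earlier results of these data known. By edgeR 86 of their 129 tested genes passed, 30 higher and 56 lower, where 22.1% of all genes were called higher and 26.1% lower. Of the 10 proteins of the signal recognition particle and its receptor, 3 were called higher and 4 lower, with a median log2 fold change of −0.09, as over all genes. Srprb, a receptor subunit, rose by 0.37 (edgeR, adjusted p = 0.0034), Srp54c, which binds the signal sequence, fell by 0.78 (adjusted p = 7.24e-05), and Srpr, the most abundant, was at 214 ± 24.1 against 185 ± 11.3 CPM (SD, n = 5; 0.21, adjusted p = 0.0439). Of 14 genes of the 7SK particle and P-TEFb, 3 were called higher and 6 lower, with a median of 0.00. Mepce, the enzyme that caps 7SK RNA, rose by 0.40 (adjusted p = 0.000393), whereas Eaf1 and Aff4, which belong to elongation complexes, fell by 0.66 (adjusted p = 4.91e-05) and 0.67 (adjusted p = 0.00571). Of 10 genes of RNase MRP and RNase P, 4 were called higher, led by Pop5 at 0.68 (adjusted p = 0.000212), and 1 lower, Rpp38 at −0.63 (adjusted p = 0.00327).

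Genes of the bodies in which Malat1 and Neat1 reside were called lower more often than higher in the same comparison. So were all genes, of which 22.1% were called higher and 26.1% lower, with a median log2 fold change of −0.09. Of 24 paraspeckle genes, 12 were called lower and 4 higher, with a median of −0.30. Rbm7 fell by 0.67 (edgeR, adjusted p = 1.97e-05), Hnrnpk, the most abundant, by 0.36 (adjusted p = 0.00146), and Smarca4, a chromatin remodeler, rose by 0.42 (adjusted p = 0.000857). Of 17 nuclear speckle genes, 9 were called lower and 0 higher (2 higher without oxLDL + pNaKtide replicate 1), with a median of −0.38. The splicing factor Srsf1 fell by 0.97 (adjusted p = 7.08e-05), and Srrm2, the most abundant, was at 341 ± 88.5 against 377 ± 30.6 CPM (SD, n = 5; adjusted p = 0.513). Of 33 genes of RNA polymerase III and its factors, 9 were called higher and 14 lower, with the subunit Polr3c at 0.62 (adjusted p = 8.2e-05) and the factor Gtf3c3 at −0.75 (adjusted p = 0.000145). The most abundant of them, Gtf3c1, was at 160.4 ± 18.02 against 145 ± 9.03 CPM (SD, n = 5; adjusted p = 0.153). Of 21 genes of RNA polymerase I and the nucleolus, 7 were called higher and 10 lower, with Cd3eap, a polymerase I subunit, at 0.68 (adjusted p = 9.71e-05), Nop58 at −0.78 (adjusted p = 6.62e-05) and nucleolin, Ncl, at −0.30 (adjusted p = 0.0212). Without oxLDL + pNaKtide replicate 1, 84 genes of these lists were called, where 46.9% of all genes were, and 59 with the offset for length and G and C content, where 37.6% of all genes were.

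Other transcripts without a poly(A) tail had higher values with oxLDL + pNaKtide than with oxLDL, and smaller differences without replicate 1 of oxLDL + pNaKtide. Apart from histone genes, their values are described without a test. Of 21 such genes, 10 had more than 14 counts over the 30 libraries. They summed to 257 CPM in that library and to at most 25.5 CPM in any other, so some passed this filter through the library where they are high, and no count of calls is given. The log2 fold change of Rn7s6, a further 7SL gene, was 3.27 over all libraries and 1.496 without that library. That of the ribosomal RNA repeat gene CT010467.1 was 2.23 and 1.10. The 2 mitochondrial ribosomal RNAs had a median of 0.86 and 0.53, and mt-Rnr1, the higher of them, stood at 0.93 and 0.69. Small nucleolar and Cajal body RNAs summed to 15.6 CPM in replicate 1 and to between 0.282 and 2.31 CPM in the other 29 libraries, and 7 of 150 passed the filter. Of 59 replication-dependent histone genes, edgeR called 15 higher and 1 lower, where 22.1% of all genes were called higher and 26.1% lower. Without that library 11 were called higher, where 22.4% of all genes were. The shares of histone genes called higher were thus near those of all genes. The median log2 fold change of the histone genes was 0.43, and 0.35 without that library, against −0.09 over all genes.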

How the data were processed

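3T3-L1 cells were profiled by RNA-seq in 30 libraries, 5 in each of 6 groups, which were taken from the labels. Per the labels and the methods of the study, libraries were made with a stranded poly(A) kit, reads were trimmed with Trimmomatic 0.38 and aligned to GRCm38 with HISAT2 2.1.0, and the authors deposited raw counts per gene (GenomicAlignments) and FPKM values. How the counting treated strand, and which annotation it used, was not given in the sources used here. Deposited counts summed to 6945498 to 15159877 per library. The deposited counts divided by size factors were not used here. Gene lengths implied by the authors' FPKM values equalled GENCODE M21 exon lengths for 96.0% of 29380 genes, so M21 was used for names (54165 of 54232 identifiers), coordinates and sequences.

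The 20139 genes whose counts over all libraries exceeded 14 were fitted with edgeR 4.0.16 (TMM, robust quasi-likelihood test, 6 groups without a replicate block), with Benjamini-Hochberg adjustment over all of them and a threshold of 0.1. SE was the absolute log2 fold change over the square root of F. Correlations used log2 CPM with a prior count of 2, and lists of similar genes used genes with a mean of at least 1 on that scale. Alternatives were DESeq2 1.42.0 (the study's own tool, in version 1.20.0 there), limma-trend 3.58.1 on log2(FPKM + 1) or log2(FPKM + 0.1), other scalings, an offset for the trends over length and G and C content, a replicate block and leaving out libraries. The edgeR and DESeq2 fits were also run on simulated counts with known changes, for IS against Control alone. Partner genes were named by rule: in each list the lowest adjusted p among genes called higher, that among genes called lower, and the most abundant gene. The members and lists were chosen with earlier results of these data known. The sequence of 7SL RNA is not reported here.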

Additional observations from a re-analysis of the deposited data

Results flagged for a closer look

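A sample was noted where its gap to the nearest other sample, over the range of its group, passed Dixon's 95% critical value of 0.710 for 5 samples. Of 36 sets of a member and a group, 9 passed. Chance gives about 1 in 20 for a set not chosen on its values, but 5 of the 9 are in the oxLDL and oxLDL + pNaKtide libraries, whose counts chose the members, and Rn7s1 and Rn7s2 are 1 measurement, so the count is a description. In oxLDL + pNaKtide replicate 1, Rn7s1 had 608 CPM, Rn7s2 615 CPM, Rn7sk 211 CPM and Gm26917 1419 CPM. The nearest libraries of that group had 76.3, 76.0, 20.2 and 297 CPM. In Control replicate 1, Malat1 had 599.6 CPM and Neat1 197 CPM, where the nearest Control libraries had 158 and 85.0 CPM. Rn7s1 and Rn7s2, which are the same measurement, each had 27.4 CPM in IS + pNaKtide replicate 3, where the nearest library had 19.8 and 19.9 CPM. Rn7sk had 13.1 CPM in oxLDL replicate 3, where the nearest library had 5.18 CPM.

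Gm26917 lay on opposite sides with pNaKtide in the presence of the other agents. All 5 IS + pNaKtide libraries lay below the IS mean of 108 CPM, and all 5 oxLDL + pNaKtide libraries lay above the oxLDL mean of 117 CPM by 356 CPM on average. Without IS replicate 4 the IS mean was 94.9 ± 12.3 CPM (SD, n = 4), and 3 of the 5 IS + pNaKtide libraries lay above it. The average difference with oxLDL rested on oxLDL + pNaKtide replicate 1, without which the mean of oxLDL + pNaKtide was 237 ± 55.5 CPM (SD, n = 4). The difference was not tested, since the oxLDL libraries chose this gene.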

How the results depend on the processing

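The number of members called stayed at 0 for pNaKtide against Control and for IS + pNaKtide against IS under each alternative run. For IS against Control it was 1 with DESeq2 (15.7% of all genes called), 1 without the 10 oxLDL and oxLDL + pNaKtide libraries (6.57%), 2 without Control replicate 1 and IS replicate 4 (45.8%), and 6 when oxLDL + pNaKtide replicate 1 was left out as well (45.8%), a choice made after seeing the data. For IS + pNaKtide against Control it was 1 with DESeq2 (7.38% of all genes called), 1 with the offset for length and G and C content (2.34%), 3 with the 2 compared groups alone (7.39%), 2 without Control replicate 1 and IS replicate 4 (32.7%), and 3 without the 3 libraries (32.5%). Leaving out 1 library at a time gave 0 to 2 in each of these comparisons.

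The median of the members was 2.01 for oxLDL + pNaKtide against oxLDL, 1.03 without the 3 libraries, and 1.03 to 2.22 with 1 library left out. For oxLDL + pNaKtide against Control it was 1.54, 0.72 without the 3 libraries, and 0.56 to 1.76 with 1 library left out. For oxLDL against Control it was −0.47 and turned to 0.055 with the offset, where Rn7sk, also at 0.055, was the median gene. The offset also turned Neat1 with oxLDL + pNaKtide against oxLDL to 0.045. The cause of these changes was not tested. Other values kept their sign but changed in size over the alternatives. With oxLDL against Control, Rn7s1 ranged from −0.98 to −0.26 and Gm26917 from −0.59 to −0.14. Malat1 with oxLDL + pNaKtide against oxLDL ranged from −1.06 to −0.23, and Rn7sk with IS against Control from −0.75 to −0.064. The calls in the lists of protein partners ranged from 59 to 96 over the alternatives and from 74 to 95 with 1 library left out.

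The other changes of sign were in log2 fold changes that did not pass the test or were not tested. With pNaKtide against Control, Malat1 (−0.16) turned to 0.11, 0.12 and 0.11 in the 3 limma-trend fits, 0.0014 with the offset, 0.52 without Control replicate 1 and IS replicate 4, and 0.54 without the 3 libraries. In the last 2 settings Gm26917 was −0.059 and −0.046, and Neat1 was −0.0016 with library size alone. With IS + pNaKtide against IS, Rn7s1 turned to 0.065, 0.068 and 0.065 with limma-trend, and in the last 2 settings Rn7s1 was 0.31 and 0.31, Rn7sk 0.066 and 0.060, and Neat1 −0.082 and −0.089. With oxLDL + pNaKtide against Control, Malat1 was 0.037, 0.039 and 0.037 in the limma-trend fits, 0.11 with the offset, and 0.57 and 0.29 in the last 2 settings.

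With 1 library left out, pNaKtide against Control ranged from −0.059 to 0.20 for Gm26917, −0.32 to 0.52 for Malat1 and −0.079 to 0.47 for Neat1. IS + pNaKtide against IS ranged from −0.29 to 0.30 for Rn7s1, −0.27 to 0.059 for Rn7sk, −0.30 to 0.037 for Malat1 and −0.090 to 0.21 for Neat1. Malat1 with oxLDL + pNaKtide against Control ranged from −0.41 to 0.57.

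Whether the replicate numbers pair the libraries is not settled. In each comparison 1 to 4 of the 5 same-numbered pairs correlated above 0.1, and the numbers were not used as pairs in the main fit. With the replicate number as a block the members called stayed at 0 in each tested comparison, the median for oxLDL + pNaKtide against oxLDL was 1.82, and Malat1 with pNaKtide against Control turned to 0.10. Depth limits Rn7sk most, with 52 counts in its lowest library, and 0 counts for Rmrp set no limit on its RNA.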
